A study of Mus musculus with 9 samples.

Results

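Matrix metalloproteinases (MMPs), their tissue inhibitors and the urokinase system are the proteins that a cell uses to cut the matrix around it, and 10 of their genes are described here: Mmp9, Mmp14, Mmp25, Mmp12, Mmp19, Timp1, Timp2, Plau, Plaur and Serpinb2. They are 10 of the 22180 mouse genes measured, and each was read by 1 array probe that carries its symbol alone. The genes were picked by function from a comparison whose results were already known, knockout against control, so their differences between these groups are given as a description. The fit over all genes included them. How many of the 10 passed its threshold, and which, is given beside the share of all genes, with nothing read from it. Transcripts were measured on 9 single-channel arrays, 1 per sample, in dendritic cells (DCs) sorted from the spleens of untreated mice as CD11c-positive and MHC class II-positive cells, with a stated purity above 95%. The 6 controls carry the genotype C/EBPbeta+/+ on a C57BL/6 background, and the sources name both plain C57BL/6 and CD11c-Cre mice for them without saying which sample came from which. The 3 knockouts, C/EBPbeta-/- on the same background, come from CD11c-Cre mice with a loxP-flanked Cebpb gene, the gene of the transcription factor C/EBPβ. The deletion therefore depends on the CD11c promoter, which drives the Cre, and the age of the mice is not given. Nothing states that replicates came from separate animals, so the spread between samples may be technical.

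MMPs are zinc-dependent endopeptidases that are made as latent proenzymes and cut collagens, laminins, elastin and cell surface proteins once activated. Tissue inhibitors of metalloproteinases (TIMPs) bind and block the active enzymes. Urokinase (Plau) held by its receptor (Plaur) turns plasminogen into plasmin, which dissolves fibrin and can activate MMP proenzymes, and Serpinb2 inhibits urokinase. In DCs these enzymes are best known for passage through basement membrane and tissue on the way to lymphoid organs.

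The deleted gene and the identity of the cells were checked first. Cebpb lay at 6.64 to 7.15 (log2 intensity) in the controls and at 5.37 to 5.60 in the knockouts, with no overlap. Of the DC markers, Itgax (CD11c) had a mean log2 intensity of 12.2 in either group, and the mean over 6 DC markers differed by at most 0.064 from the control mean in every sample. Of 8 markers of the cDC2 subset, Cd209a rose by 0.54 (limma's adjusted p = 0.046) while Ltb fell by 0.40 (0.048) and Dtx1 fell by 0.46 (0.018). Thus 1 passed 0.05 as higher and 2 as lower, where 0.906% of all genes passed in either direction. Clec4a4 differed by -0.30 (limma's adjusted p = 0.12), with all knockouts below all controls, as in 4.88% of all genes. The mean over the 8 was 0.026, -0.13 and -0.29 from the control mean in knockout replicates 1, 2 and 3, against -0.11 to 0.14 among controls. The 2 tested erythroid markers had means 0.17 to 0.37 above the control mean in the knockouts and at most 0.098 above it in a control. The part of these shifts in the values of the 10 genes was not tested. Knockout replicate 3 stood apart by its B cell markers. Their mean over 8 genes lay 1.02 above the control mean, against at most 0.14 in a control and 0.26 in the other knockouts. The 7 plasmacytoid DC markers of that sample had a mean 0.44 above, against at most 0.19 in a control and 0.21 in the other knockouts. Results for the 10 genes are therefore also given without that sample. Because each sample is a bulk of cells, a smaller share of cells of 1 type and less RNA per cell cannot be told apart in any value below.

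Promoter sequence was available for 7 of the 10 genes in the RefSeq promoter table (GRCm38.p6), which has no entry for Mmp9, Mmp19 and Plau. The stretches shown are the 250 bases before the start site of the 3 genes of the table whose knockout and control values lay furthest apart. They are given 5′ to 3′ in the direction of transcription, with motif matches in capitals. Plaur lies on the plus strand at chr7:24462233-24462482, Serpinb2 on the plus strand at chr1:107511173-107511422 (the first of 2 listed start sites) and Mmp25 on the minus strand at chr17:23645270-23645519.

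Plaur: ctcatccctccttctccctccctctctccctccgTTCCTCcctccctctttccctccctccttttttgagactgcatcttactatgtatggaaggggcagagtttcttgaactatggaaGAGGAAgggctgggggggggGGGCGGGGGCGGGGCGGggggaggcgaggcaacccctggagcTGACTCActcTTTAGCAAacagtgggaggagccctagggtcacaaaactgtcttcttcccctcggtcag

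Serpinb2: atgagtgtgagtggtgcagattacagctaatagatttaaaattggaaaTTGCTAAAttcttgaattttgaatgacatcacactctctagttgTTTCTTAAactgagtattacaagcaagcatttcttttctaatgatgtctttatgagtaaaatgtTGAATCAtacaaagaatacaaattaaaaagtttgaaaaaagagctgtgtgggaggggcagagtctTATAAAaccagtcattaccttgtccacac

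Mmp25: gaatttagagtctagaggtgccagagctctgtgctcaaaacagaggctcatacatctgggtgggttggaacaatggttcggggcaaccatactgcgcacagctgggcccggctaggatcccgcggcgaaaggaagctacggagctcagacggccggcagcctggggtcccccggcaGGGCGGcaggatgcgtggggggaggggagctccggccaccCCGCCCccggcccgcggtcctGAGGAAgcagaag

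The motifs searched, on both strands and in the whole window of 300 bases that runs to 50 bases after the start, were TTNCNNAA for C/EBP factors, TGANTCA for AP-1, GGNNNTTCC for NF-kB, GAGGAA for ETS factors such as PU.1, GGGCGG for a GC box and TATAAA for a TATA box. The 7 genes had 9 windows, since Mmp12 and Serpinb2 have more than 1 each. The C/EBP letters occurred in 5 of these 9 windows and in 40.7% of all 32851 windows. Those 5 belong to Plaur, Serpinb2, Mmp12 and Timp1, 4 of the 7 genes. In Plaur the match began 59 bases before the start site, downstream of an AP-1 match that began 69 bases before it. In Serpinb2 C/EBP matches began 202 and 158 bases before the first listed start, an AP-1 match 94 bases before it and a TATA box 29 bases before it. A further C/EBP match began 19 bases before the second listed start of Serpinb2. The AP-1 letters were found in 4 of the 9 windows, from 3 of the 7 genes (Plaur, Serpinb2 and Mmp12), and in 7.81% of all windows. In Mmp12 the C/EBP and AP-1 matches stood in different windows. The window of Mmp25, with 63.3% G and C, held 2 GC boxes and 1 ETS match, and no C/EBP match was found in those letters. GC boxes stood in 35.7% of all windows, ETS matches in 28.3%, NF-kB matches in 18.5% and TATA boxes in 13.6%. In Plaur the 3 GC boxes adjoin or overlap each other. The NF-kB letters occurred among the 7 genes in Plaur alone, after the start site. A match of letters describes the sequence and does not show that a factor binds there.

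Among the 10 genes, Mmp9 and Serpinb2 were lower in cells without C/EBPβ, Mmp25 and Plaur were higher, and the other 6 differed by less than 0.33 (log2). These 4 passed an adjusted p of 0.05 in limma's fit over all genes, 2 higher and 2 lower, where 0.906% of all genes passed, 0.415% higher and 0.491% lower. The same comparison chose the genes, so that count and its changes below support nothing. Which of the 10 pass or miss the threshold in a given fit supports nothing either. Knockouts and controls did not overlap in 5 of the 10, with Mmp25 and Plaur above (2.52% of all genes) and Mmp9, Serpinb2 and Mmp12 below (4.88% of all genes). The median difference over the 10 was 0.21, against -0.01 over all genes, and 7 of the 10 differences were above 0. Leaving out 1 sample lowered the number past 0.05 from 4 to 2 (Mmp9 and Mmp25) when that sample was control replicate 1, 4, 5 or 6 or the knockout labelled replicate 2. Plaur also missed 0.05 without control replicate 3 or knockout replicate 1, and Serpinb2 without knockout replicate 3 or with each array centred on its median, while Mmp19 passed it without knockout replicate 3.

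**Figure D1:**
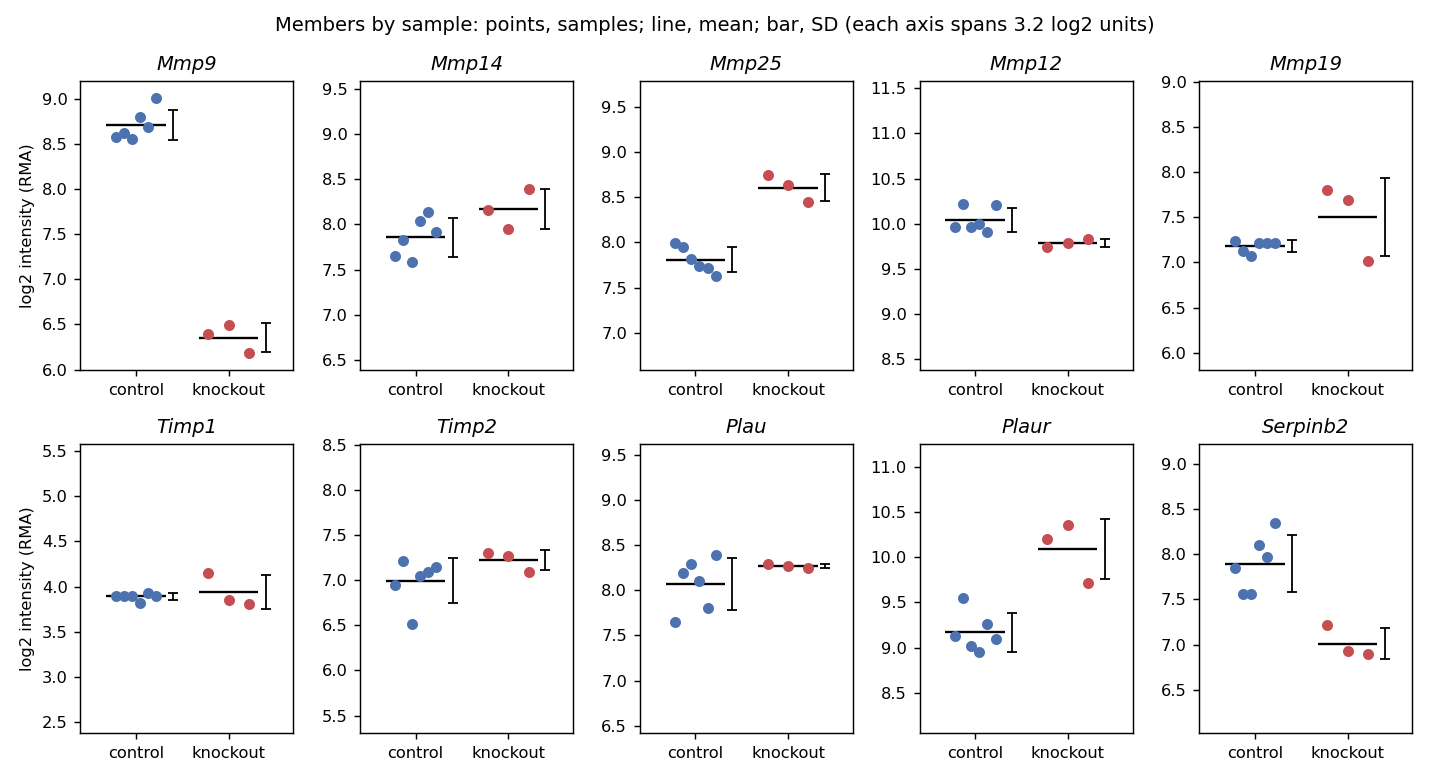
Log2 intensity of each gene in the 6 control and 3 knockout samples (points), with group mean (line) and SD (bar); every panel spans the same number of log2 units. The 3 knockout points of Mmp9 lie between 6.18 and 6.49, below all controls, while those of Plau lie within the control range.

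Mmp9 encodes gelatinase B, a secreted enzyme that cuts denatured collagen and the type IV collagen of basement membranes. Its log2 intensity in control replicates 1 to 6 was 8.58, 8.62, 8.56, 8.79, 8.69 and 9.01 (probe 17379606). In knockout replicates 1 to 3 it was 6.39, 6.49 and 6.18. The 3 knockouts were close together and the lowest control stood 2.07 above the highest knockout, against a span of 0.45 within the controls. The mean went from 8.71 ± 0.17 (SD, n = 6) to 6.35 ± 0.16 (SD, n = 3), a difference of -2.35 (SE 0.11) or 5.11-fold, the most negative among all 22180 genes. With any single sample left out it ranged from -2.42 to -2.27, the last of these without knockout replicate 3.

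The membrane-bound enzymes were the next group by role. Mmp25 (probe 17341508) encodes MT6-MMP or leukolysin, which is tied to the cell surface by a lipid anchor and is best known from neutrophils. In the controls its lowest, median and highest log2 intensity was 7.63, 7.78 and 7.99, and in knockout replicates 1 to 3 it was 8.74, 8.63 and 8.44. All knockouts lay above all controls, by at least 0.45. Group means were 7.81 ± 0.14 (SD, n = 6) and 8.61 ± 0.15 (SD, n = 3), with a difference of 0.80 (SE 0.09) or 1.74-fold, and 0.88 without knockout replicate 3. Mmp14 (probe 17300279) encodes MT1-MMP, a transmembrane collagenase that also activates the proenzyme of Mmp2. Its control values had a minimum of 7.58, a median of 7.87 and a maximum of 8.14, and the knockouts were at 8.15, 7.95 and 8.39. Knockout replicates 1 and 3 lay above every control, knockout replicate 1 by a narrow margin, and knockout replicate 2 lay within the control range. The difference of the means was 0.31 (SE 0.13), or 0.20 without knockout replicate 3.

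The other secreted enzymes differed less than Mmp9. Mmp12 (probe 17514495), macrophage elastase, lay at 9.91, 9.98 and 10.22 (lowest, median, highest) in the controls and at 9.74, 9.79 and 9.83 in the knockouts. The groups were separate, but the gap between them was 0.080, less than the SD of the controls (0.13). Its difference was -0.26 (SE 0.08), or -0.28 without knockout replicate 3. Mmp19 (probe 17238558), a secreted enzyme that cuts basement membrane proteins, showed the reverse pattern of tight controls and scattered knockouts. The controls spanned 7.07 to 7.23 around a median of 7.22, while the knockouts read 7.80, 7.69 and 7.01. Knockout replicates 1 and 2 lay above every control and knockout replicate 3, the sample with the B cell signal, lay below every control. The difference of 0.32 (SE 0.14) thus became 0.57 without knockout replicate 3 and 0.17 without knockout replicate 1. Whether the B cell signal has a part in the low value of that sample was not tested.

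Of the inhibitors of the MMPs, Timp1 differed by 0.05 and Timp2 by 0.23. The Timp1 probe was dim, with every value below the lowest array median of 5.49, so its small difference says little. Timp1 (probe 17533713), which also binds the proenzyme of Mmp9, had a control range of 3.82 to 3.93, with 4 of the 6 samples at 3.90. The knockouts were at 4.15, 3.86 and 3.81, and only knockout replicate 1 lay clearly outside the control range. The difference was 0.05 (SE 0.075). It became -0.06 without knockout replicate 1 and 0.11 without knockout replicate 3. Timp2 (probe 17272770), which takes part in the activation of the Mmp2 proenzyme by Mmp14, had the lowest, median and highest control value at 6.52, 7.07 and 7.21. Its knockouts were at 7.30, 7.27 and 7.09, so that 2 lay above every control and 1 within their range. The difference was 0.23 (SE 0.13), with 0.13 when control replicate 3, the lowest control, was left out and 0.29 when knockout replicate 3 was.

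In the urokinase system the receptor was higher in the knockouts, the inhibitor was lower, and the enzyme lay within the control range. Plaur (probe 17474974), the lipid-anchored receptor that holds urokinase at the cell surface, read 9.13, 9.54, 9.02, 8.95, 9.26 and 9.09 in control replicates 1 to 6. The knockouts read 10.2, 10.4 and 9.72. All were above all controls, but knockout replicate 3 stood only 0.18 above control replicate 2. The mean went from 9.17 ± 0.21 (SD, n = 6) to 10.1 ± 0.33 (SD, n = 3), a difference of 0.93 (SE 0.15) or 1.90-fold, with 1.11 when knockout replicate 3 was left out and 0.79 when knockout replicate 2 was. Plau (probe 17297537), urokinase itself, had 7.65, 8.15 and 8.39 as the lowest, median and highest control. The knockouts were at 8.29, 8.27 and 8.25, all within the control range and closer together (SD 0.024) than the controls (SD 0.29). The difference was 0.20 (SE 0.15), or 0.21 without knockout replicate 3 and 0.11 without control replicate 1, the lowest control. Serpinb2 (probe 17216458), plasminogen activator inhibitor 2, read 7.85, 7.56, 7.56, 8.10, 7.97 and 8.35 in control replicates 1 to 6 and 7.21, 6.93 and 6.90 in the knockouts. The highest knockout lay 0.34 below the lowest control, though the controls themselves spanned 0.79. The difference was -0.89 (SE 0.17) or 1.85-fold, and -0.83 without knockout replicate 3. A brighter probe annotated to both Serpinb2 and its neighbour Serpinb10 differed by -0.40, and there knockout replicate 3 (10.1) lay within the control range while the other 2 knockouts (9.47 and 9.60) lay below it.

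**Figure D2:**
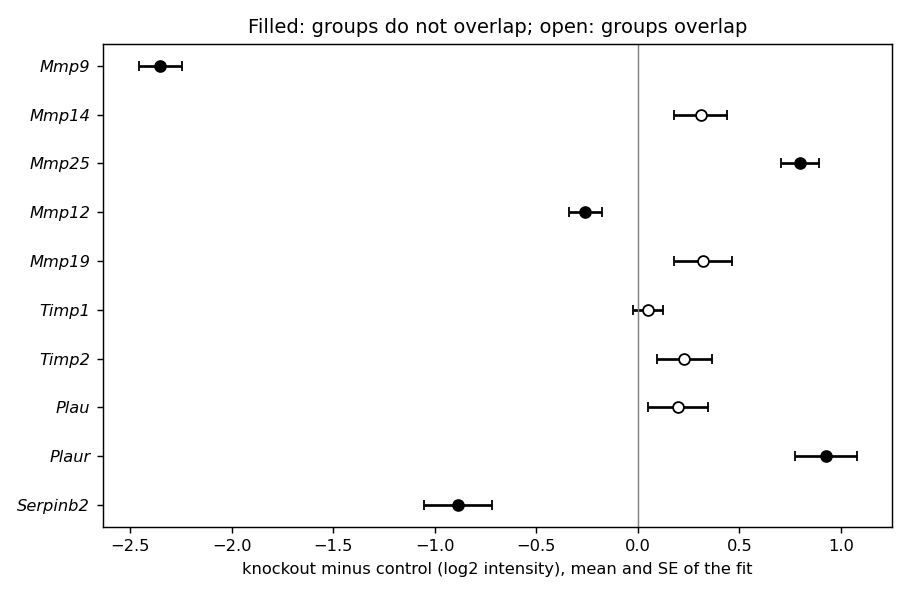
Difference of the group means, knockout minus control, on the log2 scale for the 10 genes ordered by role, with the standard error of the fit as bars. Filled points mark the 5 genes whose groups do not overlap, and the point of Mmp9 at -2.35 lies far from the other 9, which range from -0.89 to 0.93.

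The 10 genes were then compared among the controls alone. Control values entered the comparison that was known when the genes were chosen, while the correlations of the genes over the controls did not. Of them, 6 had a control SD above the upper quartile of all genes (0.16), and those of Mmp25, Mmp12, Mmp19 and Timp1 lay below it. Among the 55 pairs formed by the 10 genes and Cebpb, the largest positive Pearson correlation over the 6 controls was that of Mmp9 with Serpinb2 (r = 0.90, exact two-sided permutation p = 0.0083; Spearman's rho = 0.83, exact p = 0.058). Control replicate 6 had the highest value of both genes. After Benjamini-Hochberg adjustment over the 55 pairs neither measure passed 0.05 (adjusted permutation p = 0.46 and 0.71), and r was 0.61 without the 2 controls furthest from the median of Mmp9. Mmp9 and Mmp25 had an r of -0.80 (exact permutation p = 0.054, adjusted p = 0.75) and a rho of -0.77 (exact permutation p = 0.10, adjusted p = 0.71), with r = -0.57 without those 2 controls. Mmp9 and Cebpb were related in the controls by values that missed 0.05 (r = -0.48, exact permutation p = 0.33, adjusted p = 0.76; rho = -0.77, exact permutation p = 0.10, adjusted p = 0.71; r = -0.77 without the 2 controls). Mmp14 and Cebpb had r = -0.80 (exact permutation p = 0.029, adjusted p = 0.54) and rho = -0.89 (exact permutation p = 0.033, adjusted p = 0.71), with r = -0.57 without the 2 controls furthest from the median of Mmp14. Mmp19 and Cebpb had r = -0.91 (exact permutation p = 0.022, adjusted p = 0.54) and rho = -0.64 (exact permutation p = 0.19, adjusted p = 0.89). Without the 2 controls furthest from the median of Mmp19, r was 0.34. The remaining controls had Mmp19 values from 7.215 to 7.232 only, so this r cannot show what the relation rests on. No pair passed 0.05 after adjustment, while 3 passed before it by r and 1 by rho.

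Outside the 10 genes, the genes whose pattern over the 6 controls was most like that of Mmp9 were Med24, Slc37a1, Letm1, Dglucy and Dolpp1, with r from 0.99 to 1.00. Genes most opposed to it were Plat (-0.99), Safb2 (-0.99) and Pheta1 (-0.98). They are the extremes of all named genes with a mean log2 intensity of at least 6, so no test is attached. Their own differences between knockout and control were small, from -0.28 (Dolpp1) to 0.24 (Plat), with limma's adjusted p from 0.24 to 0.69. Of these, Dolpp1 alone had separate groups, with all knockouts below all controls.

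The rest of the pathway was taken from lists by function. Of 98 further genes listed, 90 were tested, of which 1 rose, 0 fell and 89 did not pass limma's adjusted p of 0.05, a share near the 0.906% of all genes. An unadjusted p under 0.05 was reached by 13 of the 90 (14.4%) and by 14.3% of all genes. The gene that rose was Cd63, a tetraspanin of late endosomes and the cell surface that binds Timp1. It went from 8.36 ± 0.21 (SD, n = 6; range 8.03 to 8.62) to 9.01 ± 0.18 (SD, n = 3; range 8.90 to 9.22), a difference of 0.65 (SE 0.12, limma's adjusted p = 0.045). All knockouts of Cd63 lay above all controls, but it missed 0.05 when control replicate 3, 4, 5 or 6 or knockout replicate 2 or 3 was left out. Knockouts and controls were separate in 7 of the 90 genes, 5 above (5.56%, against 2.52% of all genes) and 2 below (2.22%, against 4.88%).

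Among the activators and partners of MMPs, 1 of 9 genes rose (Cd63) and 8 did not pass. An unadjusted limma p under 0.05 was reached by 4 of the 9 (44.4%, against 14.3% of all genes). All knockouts lay above all controls in 3 of them (33.3%, against 2.52% of all genes). The list was chosen with earlier results of these data known, so nothing is read from these shares. Furin, the convertase that activates membrane-type MMPs, had a narrow spread in either group, with controls from 9.13 to 9.25 and knockouts from 9.39 to 9.46. Its difference of 0.24 (SE 0.05) did not pass (limma's adjusted p = 0.062). Cd44, a hyaluronan receptor that can hold Mmp9 at the cell surface, differed by 0.23 (SE 0.08, limma's adjusted p = 0.22), also without overlap. Of 17 other MMP genes 0 passed by limma (2 with an unadjusted p under 0.05), and their median difference was 0.02. Mmp13, a collagenase, had the largest difference at 0.41 (limma's adjusted p = 0.16), with dim values from 4.16 to 4.61 in the controls and 4.64 to 5.05 in the knockouts. Mmp7, matrilysin, differed by 0.28 (adjusted p = 0.33). The 6 other MMP inhibitors had a median of -0.02, with Reck, a membrane-anchored inhibitor, at -0.13 and Timp4 at -0.07, and 0 passed, with or without adjustment in limma.

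Of 10 tested genes of the plasminogen system 0 passed by limma (2 with an unadjusted p under 0.05), and the median was 0.03. Lrp1, an endocytic receptor that clears complexes of proteases and inhibitors, had the largest difference at 0.51 (SE 0.18, limma's adjusted p = 0.21), with overlapping groups. Plat, tissue plasminogen activator and a second target of Serpinb2, differed by 0.24 (adjusted p = 0.55). The partners of the urokinase receptor, 8 genes with a median of 0.05, held 0 genes past 0.05 (1 unadjusted). In that list Fpr2, a formyl peptide receptor, was at 0.25 and Itga5, a chain of the fibronectin receptor, at 0.25. Among 14 other clade B serpins, the family of Serpinb2, 0 passed (3 unadjusted). Serpinb7 differed by -0.56 (limma's adjusted p = 0.078) with all knockouts below all controls, and Serpinb9, an inhibitor of granzyme B, by 0.48 (adjusted p = 0.23) with overlap. The 13 ADAM proteases (median 0.08) and 13 matrix substrates (median 0.00) also held 0 past 0.05 (1 and 0 unadjusted). The largest differences there were those of Adamdec1 (-0.20) and Adam23 (-0.18), and of the basement membrane components Nid1 (-0.25) and Lamc1 (-0.21).

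**Figure D3:**
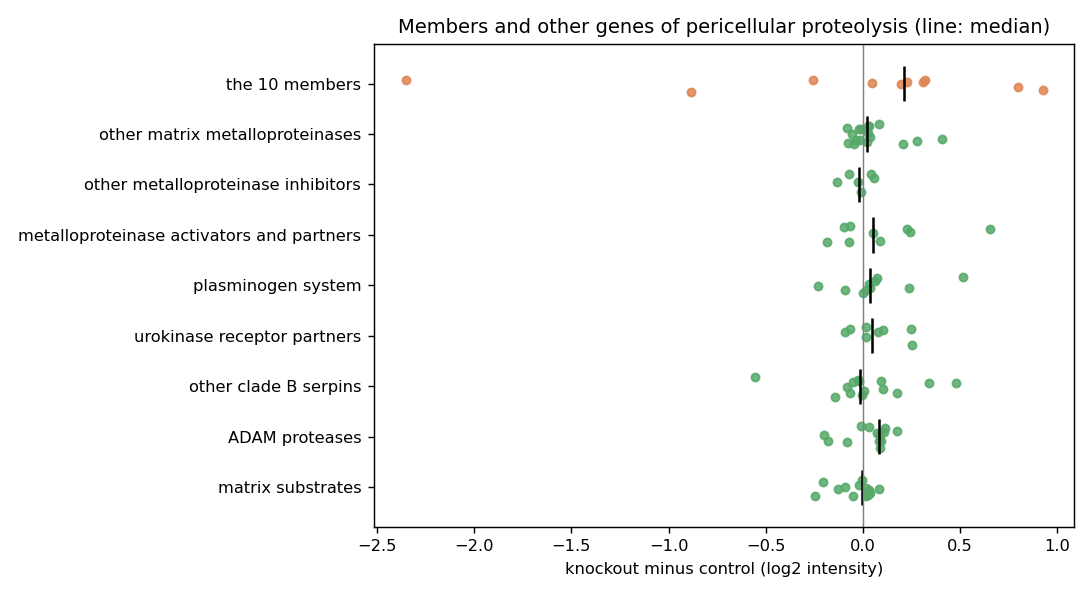
Difference between knockout and control (log2, knockout minus control) of the 10 genes and of 8 lists of other pericellular proteolysis genes, 1 point per gene, with the list median as a line. All 90 other genes lie between -0.56 and 0.65, and Mmp9 (-2.35), Serpinb2 (-0.89), Mmp25 (0.80) and Plaur (0.93) lie outside that range.

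Mmp9 and Cebpb both lie on chromosome 2 with 34 tested genes between them in the RefSeq gene order. The 5 tested genes on either side of Mmp9 ranged from -0.19 (Neurl2) to 0.32 (Pltp), and 0 of these 10 passed 0.05 by limma (2 unadjusted), with every one overlapping between groups. Over all genes 0.906% passed and 14.3% had an unadjusted limma p under 0.05, so 0 of 10 shows nothing about the region. The genes nearest to Mmp9, Pcif1 and Slc12a5, differed by -0.06 and -0.03. Of the 34 genes between Mmp9 and Cebpb, Sulf2 rose by 0.43 (limma's adjusted p = 0.016) and the transcript 5031425F14Rik fell by 0.65 (adjusted p = 0.028). Ocstamp had the highest difference, 0.55 with all knockouts above all controls, but did not pass (limma's adjusted p = 0.051). These genes were named here after their values were seen. Thus 1 of the 34 passed as higher, against 0.415% of all genes, and 1 as lower, against 0.491%. Whether their position has a part in this was not tested.

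**Figure D4:**
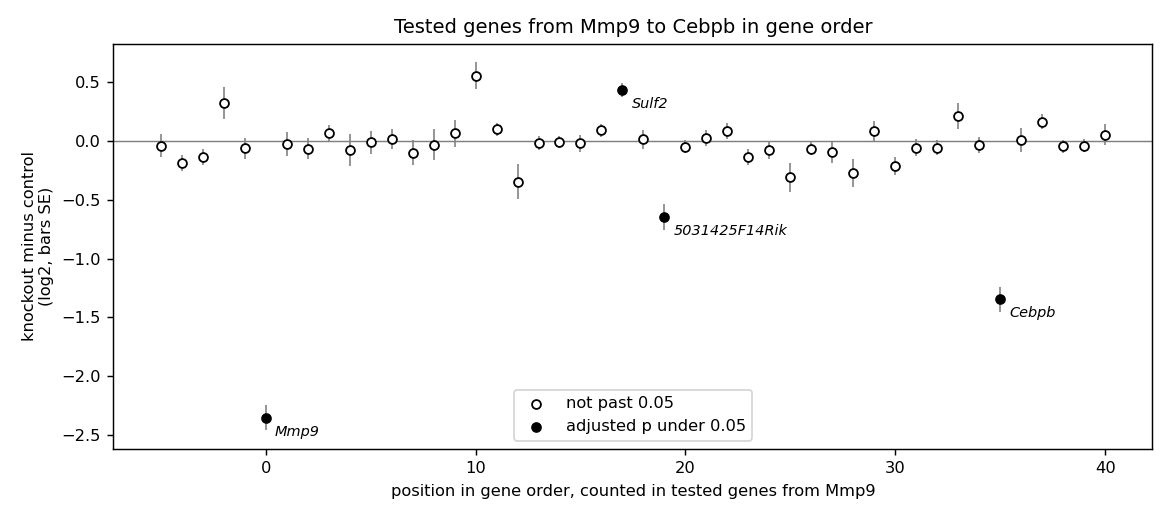
Difference between knockout and control (log2, bars SE) of the tested genes from 5 before Mmp9 to 5 after Cebpb, in gene order and without distances. Mmp9 at -2.35 and Cebpb at -1.35 stand apart from the genes beside them, and the 10 neighbours of Mmp9 lie between -0.19 and 0.32.

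Several of the 10 genes are also made by other myeloid cells, so markers of those cells are given beside them. The mean of 12 neutrophil markers was 0.050 to 0.12 above the control mean in the knockouts and between -0.040 and 0.028 in the controls, a separation without overlap, and 0 of the 12 passed 0.05 by limma (2 unadjusted). These list means were dim, at 4.97 to 5.04 in the controls and 5.06 to 5.13 in the knockouts. All lay below the lowest array median of 5.49, so their narrow spread says little about the share of neutrophils. Csf3r, the receptor of G-CSF, was at 8.02 ± 0.12 (SD, n = 6) in controls and 8.48 ± 0.22 (SD, n = 3) in knockouts (limma's adjusted p = 0.057). The granule gene Ngp had 4.56 to 4.75 in the controls and 4.32 to 4.92 in the knockouts, and Ly6g 3.67 to 4.20 and 4.04 to 4.19. The neutrophil collagenase Mmp8 differed by -0.01. S100a8, an abundant transcript of neutrophils, lay at 3.08 to 3.39 in the controls and 3.38 to 3.44 in the knockouts. Csf3r had the largest difference of the 12 (0.465). Without Csf3r the groups overlapped, with list means of 0.029, 0.10 and -0.005 in the knockouts and -0.049 to 0.048 in the controls. Leaving out the gene with the largest difference brings the groups closer by construction, so that overlap supports nothing. Of the other 11 markers 7 had differences above 0 and 4 below, namely Ltf (-0.07), Fcnb (-0.06), Retnlg (-0.05) and Camp (-0.01).

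Means of 10 monocyte markers exceeded the control mean by 0.078, 0.13 and 0.28 in knockout replicates 1, 2 and 3, while single controls lay between -0.14 and 0.25. For 12 markers of red pulp and other splenic macrophages the knockouts were 0.16, 0.63 and 0.52 above it and the controls between -0.55 and 0.55. In limma 0 of the 10 and 0 of the 12 passed an adjusted p of 0.05, where 0.906% of all genes passed. An unadjusted limma p under 0.05 was reached by 3 of the 10 and 6 of the 12, against 14.3% of all genes. Those 6 were Spic, Vcam1, Cd163, C1qa, C1qb and C1qc, higher in the knockouts by 0.42 (Cd163) to 0.80 (C1qc). Of the 12, Marco alone was lower (-0.09). Plaur was highest among the controls in control replicate 2 (9.54), which also had the highest macrophage mean of the controls (0.55). In knockout replicates 1, 2 and 3 Plaur was at 10.2, 10.4 and 9.72, with macrophage means of 0.16, 0.63 and 0.52. Over the 6 controls Plaur and the macrophage mean had r = 0.79 (exact permutation p = 0.075, adjusted p = 0.91) and rho = 0.77 (exact permutation p = 0.10, adjusted p = 0.93), with r = 0.35 without the 2 controls furthest from the macrophage median. This was 1 of 30 such pairs of a gene and a marker list, a comparison added after the data were seen, and none passed 0.05 before adjustment by r. Plasma cell markers were 0.46 to 0.55 above the control mean in the knockouts and at most 0.16 in the controls, with Jchain past 0.05 among 6. Stromal markers, a further source of Mmp14 and the TIMPs, lay between -0.081 and -0.045 in the knockouts and between -0.061 and 0.056 in the controls. The part of other cells in the differences of the 10 genes was not tested.

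**Figure D5:**
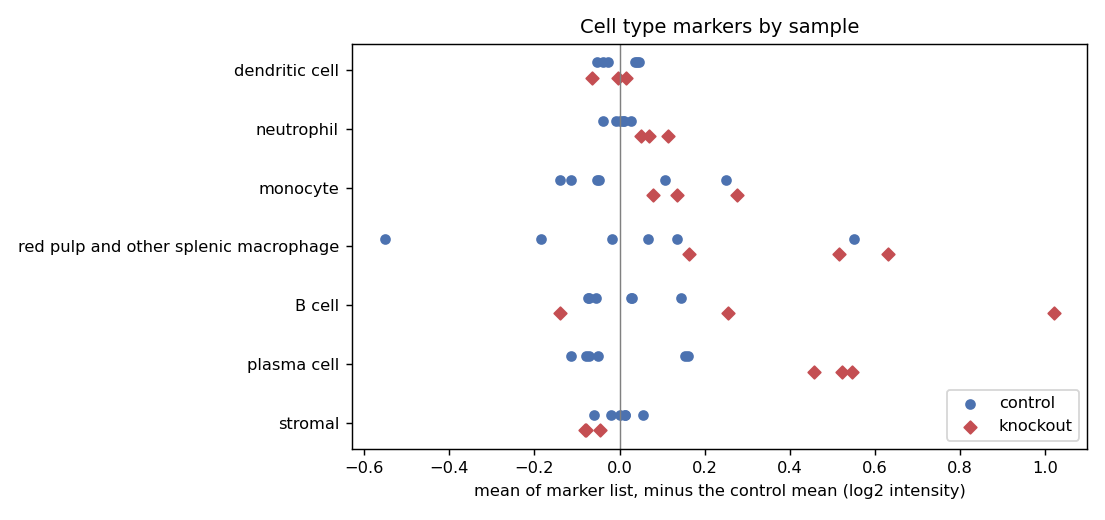
Mean of 7 marker lists in each sample relative to the control mean (log2), controls as circles and knockouts as diamonds. Macrophage markers vary most among the controls (-0.55 to 0.55), and 1 knockout has B cell markers 1.02 above the control mean. Neutrophil markers stay within 0.12 of it in all samples, but their list means are dim (4.97 to 5.13).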

How the data were processed

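The deposited table holds log2 intensities per probe, made by the authors with RMA (background correction, quantile normalization and probe summary) per the submitters' processing notes. The sources used here give no version, settings or build. Quantile normalization removes a shift common to most genes, and RMA compresses differences of dim probes. Array medians ranged from 5.49 to 5.56. Of 41801 rows, 34468 had values in all 9 samples and 23521 of these carried 1 gene symbol in GEO's platform annotation, which can be old. Probes with several symbols (1814) or none (9133) were left out, and the probe with the highest mean stood for a gene, which gave 22180 genes. The number of arrays limits the precision, and the table has no detection calls.

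All genes were fitted with limma 3.58.1 (lmFit, eBayes, two-sided; R 4.3.3) for knockout against control, adjusted by Benjamini-Hochberg over all genes, and the code was tested on simulated data. Correlations used exact permutations of the 6 controls (720 orders; numpy 2.4.6). Earlier results of these data were known when the 10 genes, gene lists, alternative fits and naming rule were chosen. The rule named all 10 genes, in each list those past 0.05 and the 2 largest other differences, the genes most like and most opposed to Mmp9 in the controls, and its 5 neighbours on either side. Alternatives were another centring or normalization, trend and robust fitting, array weights, a replicate block, a signal minimum, the mean of a gene's probes and leaving out each sample.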

Additional observations from a re-analysis of the deposited data

Results flagged for a closer look

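Among 38 genes checked, 5 had a control far from the other controls for a group of 6, where about 1 in 20 groups would be marked by chance at each check. Timp1 was at 3.82 in control replicate 4, against 3.90 in the nearest other control. Timp4 was at 3.79 in control replicate 1, with the nearest at 3.76. Fpr2, the formyl peptide receptor, was at 4.31 in control replicate 3, with the nearest at 5.07. Itga5 was at 7.57 in control replicate 2, against 7.88. Cd40, a neighbour of Mmp9 in gene order, was at 9.45 in control replicate 3, against 9.52. Apart from Fpr2 and Itga5 these gaps were below 0.1 on the log2 scale.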

How the results depend on the processing

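Each of the 10 differences kept its sign in every fit but that of Timp1, which ranged from -0.056 (without knockout replicate 1) to 0.11 over the fits without 1 sample; Mmp19 ranged from 0.17 to 0.57 over those fits. The difference of Mmp14 was 0.18 with array weights and 0.48 with the replicate block. The number of the 10 genes past 0.05 ranged from 2 to 4 without 1 sample and was 3 with arrays centred on their median (without Serpinb2) and 1 (Mmp9) with the replicate block, and it supports nothing, since this comparison chose the genes. Over all genes, 201 passed; the count was 125 with arrays centred on their median, 652 with array weights, 2 with the replicate block, 556 with a mean log2 of at least 6 in either group, and 33 (without knockout replicate 2) to 332 (without knockout replicate 1) without 1 sample. It was also under 201 by more than 1.5 times without control replicate 1, 3, 4, 5 or 6. Of the 90 other pathway genes, 1 passed; the count was 2 with trend and robust fitting, 5 with array weights, 0 with the replicate block, 2 with the signal minimum, and 0 to 2 without 1 sample, with 2 (Cd63 and Serpinb7) without knockout replicate 1. The cause of these shifts was not tested, except that fewer samples or genes enter the smaller fits and that the block rests on 3 pairs. The labels number the replicates and name no pairing. Deviations of same-numbered samples correlated at -0.058, -0.034 and -0.097, and those of differently numbered samples at -0.05 to 0.104. With 3 same-numbered pairs these values cannot settle whether the numbers stand for a pairing or a batch. The 0 of 10 neighbours of Mmp9 past 0.05 held in all 16, which shows nothing about the region, since few of all genes passed in any fit. Timp1 was not in the fit with the signal minimum. Dim probes such as Timp1 and Mmp13 set no bound here, since no background level was measured.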
